A study of Homo sapiens with 10 samples.

Results

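The genes of the mitochondrial chromosome were followed across PC3 human prostate cancer cells in which the Polycomb protein RNF2 was targeted by a hairpin RNA or in which a compound was applied. They were chosen by position alone, as every gene that the count tables place on chromosome M, which gave 37 of 57445 genes: 2 ribosomal RNA (rRNA) genes, 13 protein genes and 22 transfer RNA (tRNA) genes. PC3 is an established line, grown here in DMEM/F-12 with serum, and 10 RNA-seq libraries fall into 5 labelled groups of 2. The line and the groups are given as labelled, while the sample names in the headers of the count tables begin with MDV3 and do not name PC3, and that of RNF2 shRNA2 replicate 2 marks it as from a single lane. Cells of 3 groups stably expressed a hairpin, labelled Scramble shRNA, RNF2 shRNA1 or RNF2 shRNA2, and the other 2 groups received PRT4165 or GW-516 for 48 hours. RNF2 is the ubiquitin ligase of Polycomb repressive complex 1, a chromatin complex that silences genes, and PRT4165 is a known inhibitor of its activity. The compound groups carry no hairpin in their labels, the sources used here give no dose and there is no group treated with solvent alone. Both compounds were therefore set against Scramble shRNA, from which they differ by hairpin as well as by treatment. Whether the libraries within a group stem from separate cultures is not stated, so the p-values measure only the spread between these libraries, which may be technical.

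Total counts ran from 65877850 to 108380198 per library and 23340 to 25920 genes had a count. RNF2 was 2.45-fold lower in RNF2 shRNA1 than in Scramble shRNA (log2 difference -1.29, SE 0.059, edgeR quasi-likelihood test, Benjamini-Hochberg adjusted p = 2.3e-15). In the RNF2 shRNA2 libraries RNF2 was not lower but slightly higher (log2 difference 0.23, SE 0.052, edgeR adjusted p = 0.0010). There BMI1, another subunit of the same complex, fell by 2.14 on the log2 scale, so these libraries are named by their label throughout. The epithelial markers KRT8, KRT18, EPCAM and CDH1 together reached 659 to 802 counts per 1000000 counts of the scaled library (CPM). The leukocyte gene PTPRC was at most at 0.200 CPM and the collagen gene COL1A1 at 15.2 to 46.9 CPM, highest in GW-516, and their part in the results was not tested. The 2 libraries of a group differed in Scramble shRNA, RNF2 shRNA1 and GW-516 by a chi-square of 2.15 to 2.20 per degree of freedom over all genes, against 6.89 in PRT4165 and 12.2 in the libraries labelled RNF2 shRNA2. Of counts from 1 to 10, 62.7% to 69.6% were even, so both mates of a fragment were mostly counted, and a value near 2 is then what counting noise alone gives. Over the mitochondrial genes the same measure was 38.3 in Scramble shRNA, 10.8 in RNF2 shRNA1, 161 in RNF2 shRNA2, 233 in PRT4165 and 5.69 in GW-516, so their levels varied between libraries of a group beyond counting noise in every group. For a given fold difference this measure grows with the count. After scaling, MT-RNR2 differed 1.02, 1.01, 1.04, 1.11 and 1.00-fold within these groups in turn, and MT-CO1 1.00, 1.01, 1.03, 1.07 and 1.01-fold. Some tRNA genes with few counts differed more, such as MT-TH, 6.43-fold in Scramble shRNA.

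Mitochondria carry a small circular chromosome whose gene products serve a single task, the oxidative phosphorylation that makes most ATP in respiring cells. Both strands are copied into long transcripts, and the tRNAs that lie between the longer genes mark where these transcripts are cut into rRNAs, mRNAs and tRNAs. Mature mRNAs and rRNAs receive a poly(A) tail of a kind, mature tRNAs receive the letters CCA, and the light-strand mRNA MT-ND6 is known to lack a long tail. In the deposited data 28 genes lie on the plus strand and are called heavy-strand genes here: both rRNAs, 12 mRNAs and 14 tRNAs. The other 9 lie on the minus strand and are called light-strand genes: MT-ND6 and 8 tRNAs. The libraries were made with a kit for stranded messenger RNA, so a level below is the amount of an RNA together with how well it was captured, which cannot be told apart. Nor can fewer chromosome copies, fewer cells and less RNA per copy be told apart in bulk RNA.

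The sequences show how tightly these genes are packed, which bears on what a count of each can mean. They were read from GENCODE 29 transcripts, which lie at the same chromosome M coordinates as the count tables for all 37 genes, and 25 of 36 neighbouring pairs touch or overlap. The valine tRNA gene MT-TV (capitals) joins the small rRNA gene MT-RNR1 to the large rRNA gene MT-RNR2 with no base between them, in M:1582-1690, plus strand.
MT-RNR1, MT-TV, MT-RNR2: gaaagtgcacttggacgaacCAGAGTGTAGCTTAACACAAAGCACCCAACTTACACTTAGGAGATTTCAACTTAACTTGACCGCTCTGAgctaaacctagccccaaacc
The phenylalanine tRNA gene MT-TF (capitals) opens the chain just before MT-RNR1, in M:577-667, plus strand.
MT-TF, MT-RNR1: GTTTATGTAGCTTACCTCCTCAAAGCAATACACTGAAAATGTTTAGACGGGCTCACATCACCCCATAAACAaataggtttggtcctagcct
The glycine tRNA gene MT-TG (capitals) sits in the same manner between 2 mRNA genes, MT-CO3 and MT-ND3, in M:9971-10078, plus strand.
MT-CO3, MT-TG, MT-ND3: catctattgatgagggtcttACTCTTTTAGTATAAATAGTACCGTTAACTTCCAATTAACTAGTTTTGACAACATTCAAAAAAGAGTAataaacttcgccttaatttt
The threonine tRNA gene MT-TT (capitals) follows directly on MT-CYB, the last mRNA gene of the chain, in M:15868-15953, plus strand.
MT-CYB, MT-TT: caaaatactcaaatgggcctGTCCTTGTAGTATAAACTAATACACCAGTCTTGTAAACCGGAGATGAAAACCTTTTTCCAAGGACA
Where neighbouring mRNA genes lie on one message they share bases (capitals): MT-ATP8 and MT-ATP6 share 46, in M:8507-8592, and MT-ND4L and MT-ND4 share 7, in M:10740-10786, both on the plus strand.
MT-ATP8, MT-ATP6: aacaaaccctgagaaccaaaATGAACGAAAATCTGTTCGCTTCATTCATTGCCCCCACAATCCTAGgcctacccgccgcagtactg
MT-ND4L, MT-ND4: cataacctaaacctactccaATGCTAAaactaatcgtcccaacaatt
The headers of the count tables show no option for reads that lie over more than 1 gene, so levels of these overlapping genes, and of tRNA genes whose unprocessed RNA runs on into a neighbour, are uncertain.

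The ends of the mRNA genes show where the tail is part of the message. Of the 13 protein genes, 6 end inside a codon, 5 of them on T and MT-ND1 on TA, and it is known that the added A residues complete the stop codon there. Of the other 7, 3 end in TAA, 2 in TAG, MT-CO1 in AGA and MT-ND6 in AGG. The last 24 bases of 4 of them are given with these letters in capitals, in M:4239-4262, M:15864-15887 and M:7422-7445 on the plus strand and M:14149-14172 on the minus strand.
MT-ND1 3' end: ctccagcattccccctcaaaccTA
MT-CYB 3' end: aaaacaaaatactcaaatgggccT
MT-CO1 3' end: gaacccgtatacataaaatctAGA
MT-ND6 3' end: attgagattgctcgggggaatAGG
Inside the genes, MT-RNR2 is 35.1% A with 4 runs of 6 or more A, the longest of 7, and MT-RNR1 is 33.0% A with 1 such run. The mRNA genes range from 19.6% A in MT-ND6, whose longest run is 3, to 38.6% in MT-ATP8.

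All 37 genes had a count in at least 1 library and 33 had a count in each library, with 34 to 37 detected per library. The missing ones were always among the tRNA genes MT-TG, MT-TR, MT-TS2 and MT-TL2. Together the mitochondrial genes took 2.47% and 2.51% of all counts in Scramble shRNA, 3.24% and 3.23% in RNF2 shRNA1, 2.76% and 2.65% in libraries labelled RNF2 shRNA2, 2.67% and 2.46% in PRT4165 and 2.25% and 2.26% in GW-516. RNF2 shRNA1 libraries were highest and GW-516 libraries lowest, and PRT4165 overlapped Scramble shRNA. Heavy-strand mRNAs made up 56.7% to 76.9% of the mitochondrial counts, rRNAs 22.7% to 42.9%, MT-ND6 0.136% to 0.350% and the tRNAs together 0.156% to 0.251%.

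The balance between rRNA and mRNA differed between the groups. The rRNAs gave 0.419 and 0.420 counts per mRNA count in Scramble shRNA, 0.756 and 0.753 in RNF2 shRNA1, 0.297 and 0.294 in libraries labelled RNF2 shRNA2, 0.626 and 0.616 in PRT4165 and 0.633 and 0.624 in GW-516. Compared with Scramble shRNA, this ratio was higher in RNF2 shRNA1 and in both compounds and lower in the libraries labelled RNF2 shRNA2, with no overlap between Scramble shRNA and any other group, and PRT4165 and GW-516 overlapped each other. With 2 libraries against 2 an exact permutation test cannot give a two-sided p below 0.333, so none is given for these ratios. The share of rRNA in all counts was 0.735% ± 0.0077 (SD, n = 2) in Scramble shRNA and 1.39% ± 0.0048 in RNF2 shRNA1. For heavy-strand mRNAs it was 1.75% ± 0.018 in Scramble shRNA, 1.84% ± 0.0028 in RNF2 shRNA1, 2.08% ± 0.051 in libraries labelled RNF2 shRNA2, 1.57% ± 0.085 in PRT4165 and 1.38% ± 0.012 in GW-516.

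**Figure D1:**
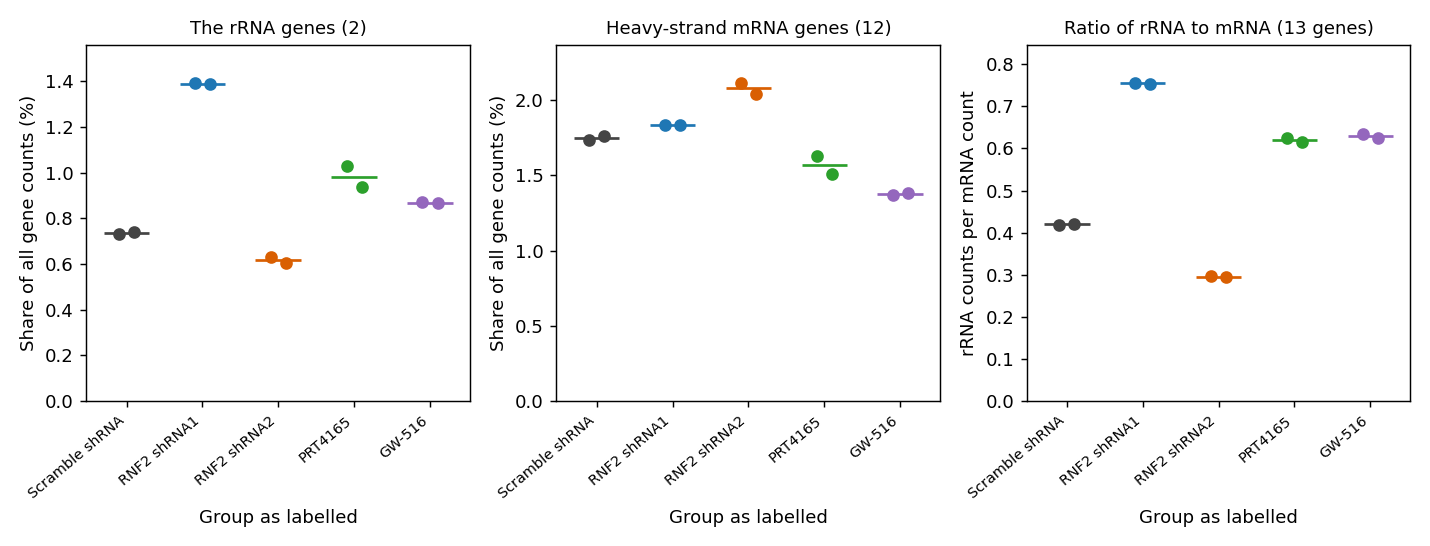
The left and middle panels plot the share of all gene counts (%) taken by the rRNA genes and by the heavy-strand mRNA genes, and the right panel the rRNA counts per mRNA count, with 1 point per library, a line at the group mean and the 5 labelled groups on the x axis. The ratio sits at 0.419 and 0.420 in Scramble shRNA, at 0.753 and 0.756 in RNF2 shRNA1 and at 0.297 and 0.294 in the libraries labelled RNF2 shRNA2.

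Of the 37 genes, 32 passed the filter on low counts and were tested, while MT-TG, MT-TR, MT-TH, MT-TS2 and MT-TL2, with 0 to 7 counts per library, were not. In RNF2 shRNA1 against Scramble shRNA 10 of 32 were higher and 4 lower, where 26.2% and 28.6% of all 18478 tested genes were called in these directions at an adjusted p under 0.05. The median log2 difference of the 32 was 0.24, against -0.01 over all tested genes. The 4 lower genes became 2 without Scramble shRNA replicate 2 or either RNF2 shRNA1 library and 7 without RNF2 shRNA2 replicate 1. Of the 32, 9 were higher in libraries labelled RNF2 shRNA2 and 3 lower, against 21.1% and 21% of all genes, with medians of 0.17 and 0.01. In PRT4165 1 of 32 was higher and 10 lower, against 19.9% and 21.7%, with a median of -0.09, and 2 were higher with DESeq2 and without either RNF2 shRNA1 library. In GW-516 1 was higher and 14 lower, against 26.5% and 29%, with a median of -0.34. These 4 comparisons share the Scramble shRNA libraries, so a deviation of those libraries enters all of them. With the near-identical pairs of Scramble shRNA, RNF2 shRNA1 and GW-516 summed and each counted as 1 sample, 9 were higher and 2 lower in RNF2 shRNA1 (16.9% and 17.3% of all genes), 8 and 2 in the RNF2 shRNA2 libraries (10.8% and 13.3%), 2 and 8 in PRT4165 (12.5% and 11.6%) and 1 and 13 in GW-516 (15.8% and 18%).

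The rRNAs form the scaffold of the mitochondrial ribosome, MT-RNR1 of its small subunit (the 12S rRNA) and MT-RNR2 of its large subunit (the 16S rRNA). MT-RNR2 (M:1671-3229, plus strand) had 6429 and 6531 CPM in Scramble shRNA, 13342 and 13253 in RNF2 shRNA1, 5734 and 5525 in libraries labelled RNF2 shRNA2, 9389 and 8443 in PRT4165 and 7482 and 7498 in GW-516. It was highest in both RNF2 shRNA1 libraries and no group overlapped another. The log2 difference from Scramble shRNA was 1.04 in RNF2 shRNA1 (SE 0.045, edgeR adjusted p = 3.4e-07), a 2.05-fold rise. It was 0.46 in PRT4165 (SE 0.045, adjusted p = 9.2e-05) and 0.21 in GW-516 (SE 0.045, adjusted p = 0.0052). By contrast MT-RNR2 fell by 0.20 on the log2 scale in libraries labelled RNF2 shRNA2 (SE 0.045, adjusted p = 0.0082), a call that was lost without replicate 2 of that group.

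MT-RNR1 (M:648-1601, plus strand) moved less. It had 901 and 912 CPM in Scramble shRNA, 978 and 977 in RNF2 shRNA1, 700 and 566 in libraries labelled RNF2 shRNA2, 914 and 881 in PRT4165 and 804 and 795 in GW-516. The RNF2 shRNA1 and GW-516 values lie outside those of Scramble shRNA, but their differences of 0.11 and -0.18 on the log2 scale did not pass the test (edgeR adjusted p = 0.40 and 0.17). Both were called when either or both libraries labelled RNF2 shRNA2 were left out, and those 2 libraries differed 1.24-fold in MT-RNR1. Over the alternatives the adjusted p of the RNF2 shRNA1 difference ran from 4.9e-06 to 0.66. In the libraries labelled RNF2 shRNA2 MT-RNR1 fell by 0.52 (SE 0.096, edgeR adjusted p = 0.0078), which was not called when near-identical libraries of a group were summed and counted once.

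The counts of MT-RNR2 per count of MT-RNR1 were 7.13 and 7.16 in Scramble shRNA, 13.6 in both RNF2 shRNA1 libraries, 8.19 and 9.76 in libraries labelled RNF2 shRNA2, 10.3 and 9.59 in PRT4165 and 9.31 and 9.43 in GW-516. All 4 groups lie above Scramble shRNA in this ratio, including the libraries labelled RNF2 shRNA2, in which both rRNAs were lower. Nuclear RNAs that are known to lack a poly(A) tail were followed as a list of 19, of which 12 were in the tables and 6 could be tested. Their summed level was 1.08 to 1.63 CPM in Scramble shRNA, 1.38 to 1.89 in RNF2 shRNA1, 0.821 to 0.858 in libraries labelled RNF2 shRNA2, 1.23 to 1.26 in PRT4165 and 1.10 to 1.21 in GW-516. SCARNA12 of that list was at 0 in all libraries, and RMRP was at 0.642 and 0.0912 CPM in the Scramble shRNA pair. In the edgeR test none of the 6 was called against Scramble shRNA in any group. At an unadjusted p under 0.05 only RMRP passed, lower in the libraries labelled RNF2 shRNA2 (0 with DESeq2). In those libraries 1 RNA of the list was called lower without the filter on low counts, and the count also moved with near-identical pairs summed. Without Scramble shRNA replicate 2, 1 of the 6 was called lower in each of the libraries labelled RNF2 shRNA2, PRT4165 and GW-516, and without Scramble shRNA replicate 1, 1 was called higher in RNF2 shRNA1. The list's part in the rRNA differences was not tested.

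**Figure D2:**
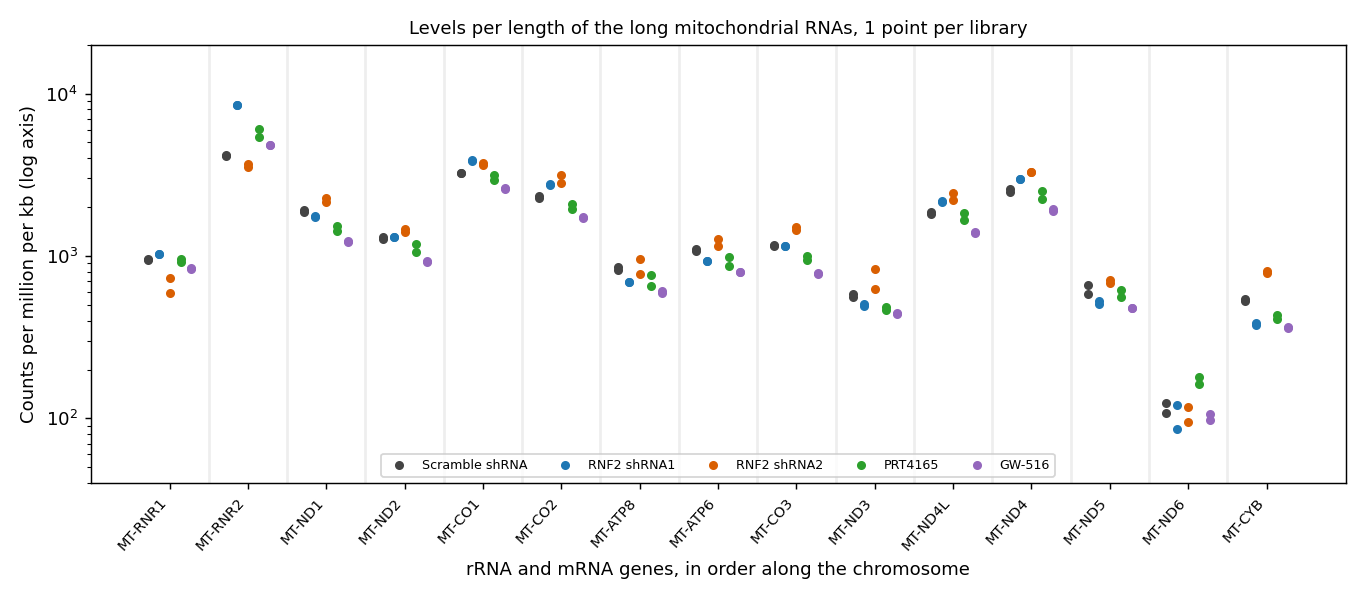
CPM per kb of gene length (log axis) are plotted for the 2 rRNA and 13 mRNA genes in chromosome order, with 1 point per library coloured by group. MT-RNR2 is the highest RNA in the other 4 groups but not in the RNF2 shRNA2 libraries, and lies at 8558 and 8501 per kb in RNF2 shRNA1 against 4124 and 4189 in Scramble shRNA, while MT-ND6 is the lowest and is highest in PRT4165.

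Per kb of gene length, levels in Scramble shRNA covered a wide range although the heavy-strand genes are copied from shared transcripts. MT-RNR2 led with 4157 ± 46 CPM per kb (SD, n = 2). MT-CO1 followed with 3257 ± 10, MT-ND4 with 2523 ± 67 and MT-CO2 with 2312 ± 58. MT-ND1 at 1891 ± 51 and MT-ND4L at 1841 ± 50 were close, with MT-ND1 the higher in each library (1855 and 1927 against 1805 and 1877). MT-ND2 reached 1293 ± 29, MT-CO3 1165 ± 14 and MT-ATP6 1086 ± 14. The small rRNA MT-RNR1 came after 8 of the mRNAs, at 950 ± 7.5, ahead of MT-ATP8 at 839 ± 27. The values of MT-ND5 at 622 ± 54 and MT-ND3 at 574 ± 18 lie within their spread, MT-CYB had 538 ± 11, and MT-ND6 ended the order with 116 ± 11. The order changed at its head in libraries labelled RNF2 shRNA2, where MT-CO1 had 3732 and 3613 CPM per kb and MT-RNR2 3678 and 3544.

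MT-CYB encodes cytochrome b, the mitochondrially encoded subunit of complex III, and it varied more than any other heavy-strand mRNA. It had 605 and 624 CPM in Scramble shRNA, 431 and 438 in RNF2 shRNA1, 893 and 921 in libraries labelled RNF2 shRNA2, 491 and 467 in PRT4165 and 413 and 419 in GW-516. No group overlapped another, the libraries labelled RNF2 shRNA2 being highest and GW-516, just under RNF2 shRNA1, lowest. Against Scramble shRNA MT-CYB fell by 0.50 on the log2 scale in RNF2 shRNA1 (SE 0.028, edgeR adjusted p = 1.6e-13) and rose by 0.56 in the libraries labelled RNF2 shRNA2 (SE 0.028, adjusted p = 5.3e-14). It fell by 0.36 in PRT4165 (SE 0.028, adjusted p = 2.0e-10) and by 0.56 in GW-516 (SE 0.028, adjusted p = 1.9e-14). All 4 calls held in all alternatives.

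The subunits of complex IV, the cytochrome c oxidase that passes electrons to oxygen, are encoded by MT-CO1, MT-CO2 and MT-CO3. MT-CO1 had 5011 and 5033 CPM in Scramble shRNA, 5984 and 5946 in RNF2 shRNA1, 5755 and 5571 in libraries labelled RNF2 shRNA2, 4843 and 4537 in PRT4165 and 4013 and 4068 in GW-516. Both hairpin groups were above Scramble shRNA and both compounds below it, by log2 differences of 0.25 (SE 0.025, edgeR adjusted p = 1.2e-08), 0.17, -0.10 and -0.31. MT-CO2 lay on the same sides of Scramble shRNA, with 0.25, 0.37, -0.19 and -0.42. Its highest values were in the libraries labelled RNF2 shRNA2, at 2162 and 1925 CPM, against 1900 and 1863 in RNF2 shRNA1. The PRT4165 calls of both were lost when Scramble shRNA replicate 2 or PRT4165 replicate 2 was left out, and that of MT-CO1 also without Scramble shRNA replicate 1. MT-CO3 differed from its partners in RNF2 shRNA1, where its log2 difference of -0.02 was not called, and rose by 0.34 in the libraries labelled RNF2 shRNA2, while it fell by 0.26 in PRT4165 and by 0.57 in GW-516.

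MT-ATP6 and MT-ATP8, which share the 46 bases printed above, encode membrane subunits of the ATP synthase, complex V. MT-ATP6 had 733 and 747 CPM in Scramble shRNA, 631 and 630 in RNF2 shRNA1, 868 and 788 in libraries labelled RNF2 shRNA2, 673 and 593 in PRT4165 and 545 and 542 in GW-516. It fell by 0.23 in RNF2 shRNA1 (SE 0.067, edgeR adjusted p = 0.026), by 0.22 in PRT4165 and by 0.44 in GW-516 on the log2 scale, and its difference of 0.16 in the libraries labelled RNF2 shRNA2 was not called. The RNF2 shRNA1 call was lost without Scramble shRNA replicate 2, RNF2 shRNA1 replicate 1 or RNF2 shRNA1 replicate 2, and the PRT4165 call without either Scramble shRNA library. MT-ATP8, at 143 and 144 CPM in RNF2 shRNA1 against 170 and 177 in Scramble shRNA, passed the test only in GW-516, where it fell by 0.48 (SE 0.119, adjusted p = 0.017), a call lost without any of the 4 libraries compared. Its 2 libraries labelled RNF2 shRNA2 differed 1.23-fold, at 198 and 161. Without either of them, the RNF2 shRNA1 difference of -0.27 was called as well.

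Complex I, the NADH dehydrogenase through which most electrons enter the chain, takes 7 subunits from this chromosome, 6 of them from heavy-strand genes. MT-ND4 and MT-ND4L, which lie on a shared message, moved alike in value: 0.25 and 0.23 in RNF2 shRNA1, 0.37 and 0.34 in the libraries labelled RNF2 shRNA2, and -0.40 for each in GW-516 (all called by edgeR). In PRT4165 their differences of -0.08 and -0.07 were not called, but both were without PRT4165 replicate 1, and MT-ND4 also without the filter on low counts. MT-ND4 had 3411 and 3541 CPM in Scramble shRNA, 4119 and 4130 in RNF2 shRNA1, 4506 and 4509 in libraries labelled RNF2 shRNA2, 3457 and 3104 in PRT4165 and 2593 and 2672 in GW-516. The libraries labelled RNF2 shRNA1 and RNF2 shRNA2 were thus the higher ones and GW-516 the lowest, with PRT4165 overlapping Scramble shRNA.

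The other complex I mRNAs did not rise in RNF2 shRNA1. MT-ND1 had 1773 and 1842 CPM in Scramble shRNA, 1656 and 1694 in RNF2 shRNA1, 2178 and 2063 in libraries labelled RNF2 shRNA2, 1462 and 1370 in PRT4165 and 1172 and 1180 in GW-516. It fell by 0.11 on the log2 scale in RNF2 shRNA1 (SE 0.031, edgeR adjusted p = 0.0052, lost without Scramble shRNA replicate 2 or RNF2 shRNA1 replicate 1), rose by 0.23 in the libraries labelled RNF2 shRNA2, and fell by 0.35 in PRT4165 and by 0.62 in GW-516. MT-ND1 under GW-516 was the largest fall among heavy-strand mRNAs in these 4 comparisons. MT-ND5 fell by 0.27 in RNF2 shRNA1 (SE 0.073, adjusted p = 0.021, lost without RNF2 shRNA1 replicate 2) and by 0.38 in GW-516. Its differences of 0.17 in the RNF2 shRNA2 libraries and -0.08 in PRT4165 were not called, the former being called without Scramble shRNA replicate 1 and the latter without Scramble shRNA replicate 2.

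MT-ND2 was level in RNF2 shRNA1, with a log2 difference of 0.02 that was not called. It rose by 0.15 in the libraries labelled RNF2 shRNA2 (edgeR adjusted p = 0.022, lost without Scramble shRNA replicate 1 or either library of that group), and fell by 0.20 in PRT4165 and by 0.48 in GW-516. MT-ND3 was not called against Scramble shRNA in any group by edgeR, with log2 differences of -0.20, 0.33, -0.27 and -0.37 in RNF2 shRNA1, the libraries labelled RNF2 shRNA2, PRT4165 and GW-516. Its libraries labelled RNF2 shRNA2 differed 1.33-fold, at 287 and 216 CPM, and without either of them the RNF2 shRNA1, PRT4165 and GW-516 differences of MT-ND3 were called. The remaining library labelled RNF2 shRNA2 was then called higher than Scramble shRNA too, its spread being taken from the other groups, and DESeq2 called MT-ND3 in that group and in GW-516.

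Counted as a class, 4 of the 12 heavy-strand mRNAs were higher and 4 lower in RNF2 shRNA1 (2 lower with near-identical pairs summed), with a median log2 difference of -0.07. Both counts are 33.3% of the class, near the 26.2% and 28.6% of all genes. With pairs summed 4 were higher and 2 lower, against 16.9% and 17.3% of all genes. MT-CYB was called in all alternatives, so not all of MT-ND1, MT-ATP6 and MT-ND5 were called lower with pairs summed. Of the 12, 8 were higher in the libraries labelled RNF2 shRNA2, in PRT4165 7 of 12 were lower and in GW-516 11 of 12 were lower, with medians of 0.28, -0.21 and -0.43, where 21.1% of all genes were higher in the first and 21.7% and 29% lower in the other 2. With pairs summed these counts were 7, 5 and 10, against 10.8%, 11.6% and 18% of all genes. The paragraphs above on single heavy-strand mRNAs do not name the calls lost with pairs summed. No heavy-strand mRNA was called in the opposite direction in these 3 comparisons by edgeR or DESeq2, and 0 reached an unadjusted p under 0.05 in that direction.

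**Figure D3:**
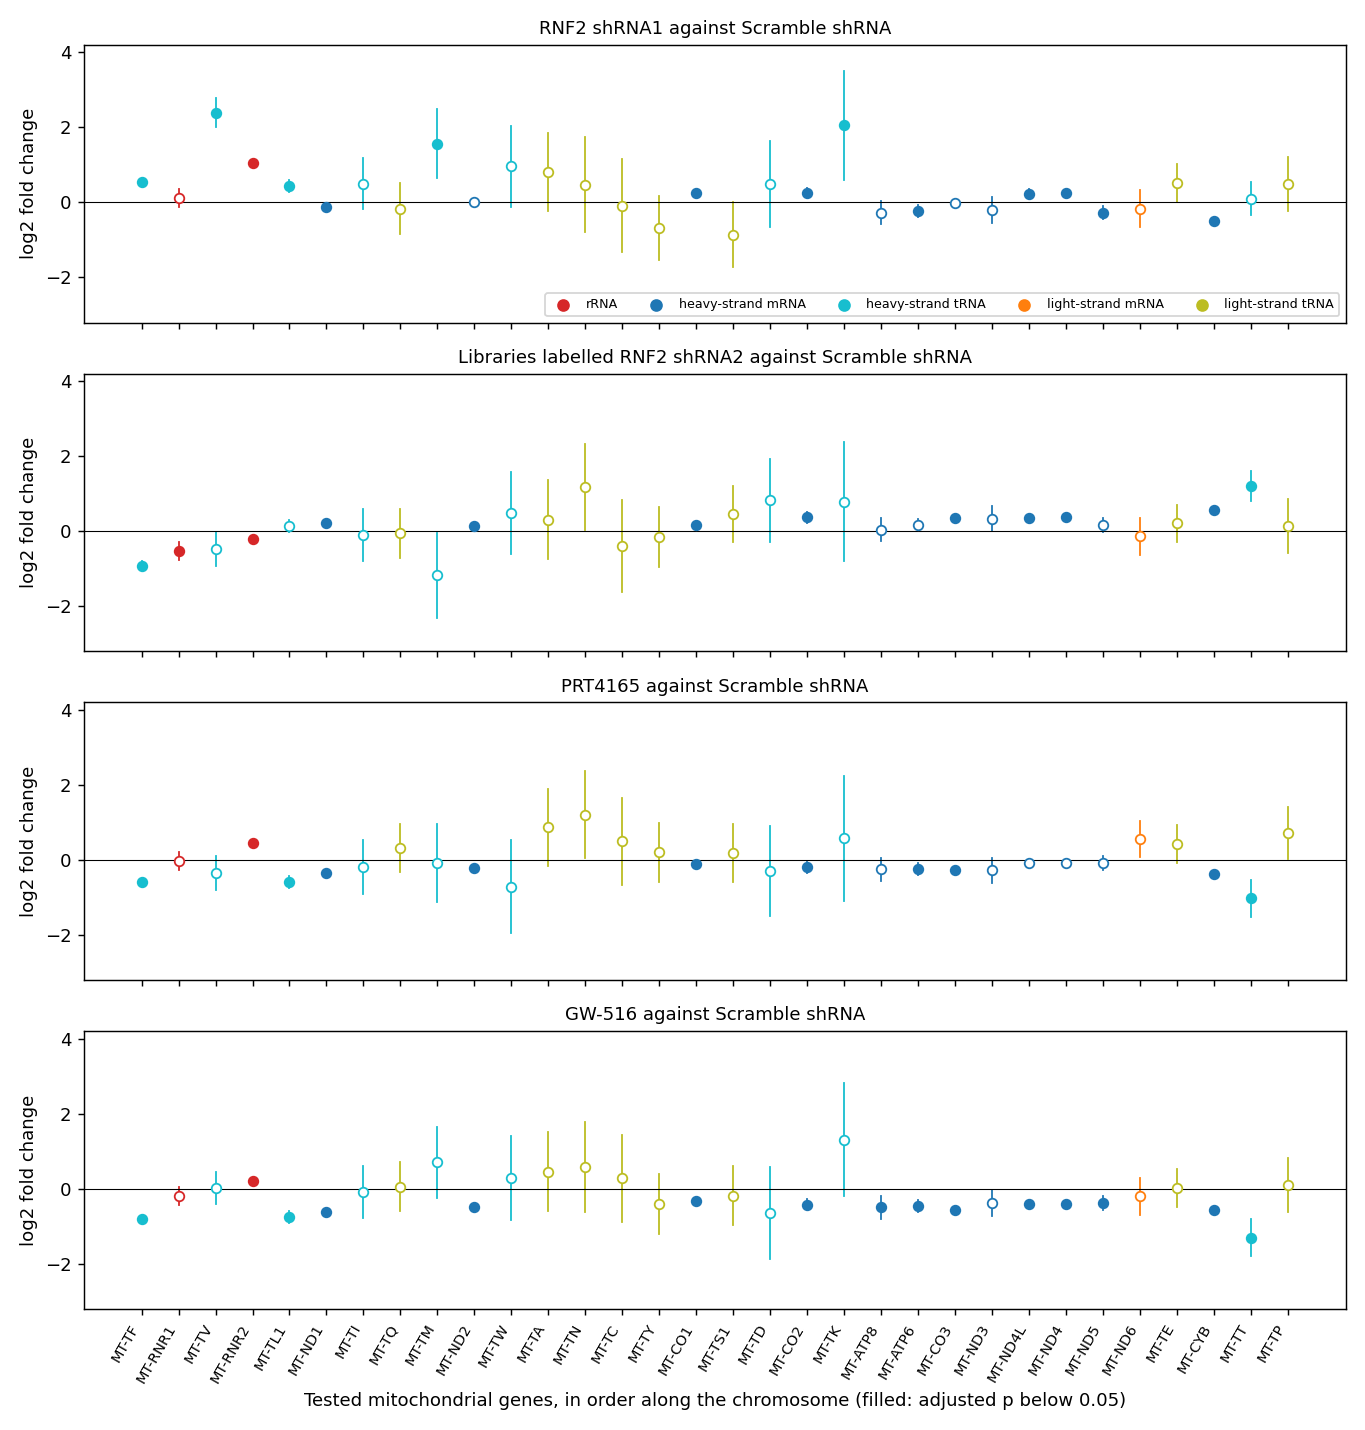
Each panel plots the log2 fold change from Scramble shRNA of the 32 tested genes in chromosome order, with 95% intervals and a colour for each gene class, filled where the edgeR adjusted p was under 0.05. MT-TV and MT-RNR2 stand out upward in RNF2 shRNA1 at 2.39 and 1.04, and all 12 heavy-strand mRNAs lie below 0 in GW-516.

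MT-ND6, the complex I subunit read from the light strand, had a pattern of its own in value. It had 65.1 and 56.8 CPM in Scramble shRNA, 45.4 and 63.3 in RNF2 shRNA1, 61.7 and 50.0 in libraries labelled RNF2 shRNA2, 93.8 and 85.7 in PRT4165 and 51.0 and 55.6 in GW-516. Both PRT4165 libraries were above the other 8, which overlapped each other apart from GW-516 lying below Scramble shRNA. The log2 difference of PRT4165 from Scramble shRNA was 0.56 (SE 0.189) and did not pass the test (edgeR adjusted p = 0.068). It was called with DESeq2, with near-identical pairs summed and without either RNF2 shRNA1 library, and the adjusted p ran from 0.012 to 0.25 over the alternatives. MT-ND6 counts were 5.45% and 5.37% of those of its neighbour MT-ND5 on the other strand in Scramble shRNA, 4.78% and 6.92% in RNF2 shRNA1, 4.76% and 4.04% in libraries labelled RNF2 shRNA2, 8.40% and 8.46% in PRT4165 and 5.90% and 6.37% in GW-516.

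The tRNAs carry amino acids to the mitochondrial ribosome, and their genes were read thinly and unevenly in these libraries. Of all counts of the 22 tRNA genes, MT-TF took 56.4% and the leucine tRNA gene MT-TL1 22.9%. They were the only tRNA genes with more than 500 counts in each library. At the other end, MT-TG, MT-TR, MT-TS2 and MT-TL2 had at most 5 counts in any library. MT-TG had 0 counts in both Scramble shRNA libraries, which allows up to 0.0837 and 0.0912 CPM there for counting error, taking 6 counts as the limit since both mates of a fragment were mostly counted. Both genes with the most counts thus flank the rRNAs and the emptiest ones lie between mRNA genes or within the run of tRNA genes before MT-ND5. Position alone does not give the level: MT-TV, which touches both rRNA genes, had 49 to 81 counts in 8 libraries.

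MT-TV was the tRNA gene with the widest difference. It had 66 and 57 counts in Scramble shRNA, 313 and 308 in RNF2 shRNA1, 49 and 65 in libraries labelled RNF2 shRNA2, 54 and 51 in PRT4165 and 76 and 81 in GW-516. The RNF2 shRNA1 pair stood alone, 5.25-fold above Scramble shRNA (log2 difference 2.39, SE 0.181, edgeR adjusted p = 3.5e-11), and its other 3 differences from Scramble shRNA were not called. MT-TF, at the start of the chain, also rose in RNF2 shRNA1, by 0.54 on the log2 scale (SE 0.052, adjusted p = 2.6e-09), but fell by 0.92, 0.58 and 0.81 in the libraries labelled RNF2 shRNA2, PRT4165 and GW-516. Its counts were 2577 and 2273 in Scramble shRNA and 3550 and 3235 in RNF2 shRNA1. MT-TL1, which touches the 3' end of MT-RNR2, rose by 0.44 in RNF2 shRNA1 and fell by 0.58 in PRT4165 and by 0.75 in GW-516, opposite in direction to MT-RNR2 itself under both compounds.

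MT-TT moved with a larger value than its neighbour MT-CYB in 3 of the 4 groups. Its counts were 85 and 74 in Scramble shRNA, 86 and 78 in RNF2 shRNA1, 172 and 307 in libraries labelled RNF2 shRNA2, 42 and 43 in PRT4165 and 34 and 47 in GW-516. It rose by 1.21 on the log2 scale in the libraries labelled RNF2 shRNA2 (SE 0.197, edgeR adjusted p = 2.0e-05) and fell by 1.01 in PRT4165 (SE 0.237, adjusted p = 0.0011) and by 1.30 in GW-516 (SE 0.238, adjusted p = 5.1e-05). In RNF2 shRNA1, where MT-CYB fell, MT-TT had a difference of 0.10 that was not called. The methionine tRNA gene MT-TM rose by 1.56 in RNF2 shRNA1 on counts of 42 and 38 against 10 and 18, a call lost without Scramble shRNA replicate 1. The lysine tRNA gene MT-TK rose by 2.05 on counts of 14 and 18 against 2 and 6, a call lost with DESeq2, with near-identical pairs summed and without Scramble shRNA replicate 1 or RNF2 shRNA1 replicate 2.

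The aspartate tRNA gene MT-TD and the serine tRNA gene MT-TS1 show how far 1 library can matter. MT-TD had 152 and 615 counts and MT-TS1 26 and 101 in the 2 libraries labelled RNF2 shRNA2, 2.64-fold and 2.53-fold apart after scaling, where replicate 2 is also the deepest library. In the other groups MT-TD ran from 118 to 229 counts. In RNF2 shRNA1 MT-TD had 229 and 200 counts against 158 and 158 in Scramble shRNA, a log2 difference of 0.49 that was called only when either or both libraries labelled RNF2 shRNA2 were left out. Likewise the GW-516 difference of -0.64, on 137 and 118 counts, was called without either of them. Against Scramble shRNA the difference of MT-TD was called without RNF2 shRNA2 replicate 1, when only the deep library stood for its group.

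None of the 8 light-strand tRNA genes was called against Scramble shRNA in any group by edgeR or DESeq2. Without RNF2 shRNA2 replicate 1, however, MT-TS1 was called lower in RNF2 shRNA1 (log2 difference -0.86 with all libraries, edgeR adjusted p from 0.046 to 0.31 over the alternatives) and higher in the remaining RNF2 shRNA2 library (0.46 with all libraries, edgeR adjusted p from 0.028 to 0.63). At an unadjusted p under 0.05, 1 was higher in RNF2 shRNA1, 1 in libraries labelled RNF2 shRNA2 and 2 in PRT4165. Their counts were low, from 6 in MT-TC and MT-TN to 110 in MT-TE, the glutamate tRNA gene next to MT-ND6. Of the 9 heavy-strand tRNA genes tested, 5 were higher in RNF2 shRNA1, 1 was higher and 1 lower in the libraries labelled RNF2 shRNA2, and 3 were lower in each compound group. Of all genes, 26.2% were called higher in RNF2 shRNA1, 21.1% higher and 21% lower in the libraries labelled RNF2 shRNA2, 21.7% lower in PRT4165 and 29% lower in GW-516, so 3 of 9 in GW-516 is near the share of all genes.

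**Figure D4:**
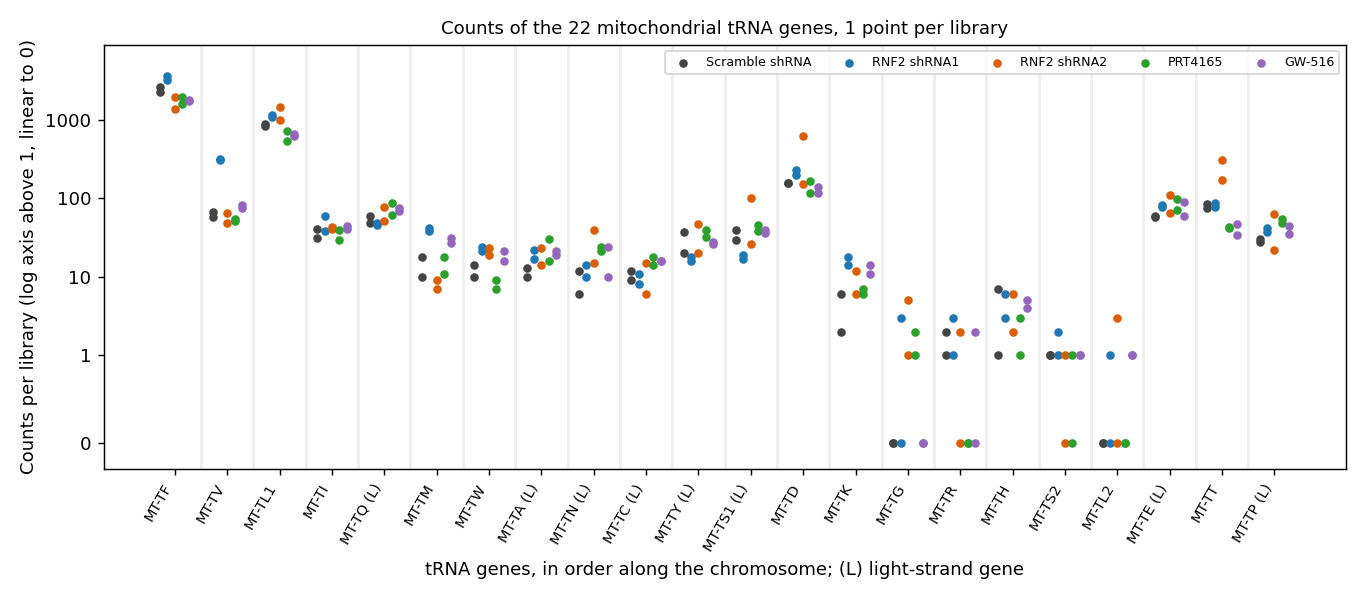
Counts per library (log axis above 1, linear to 0) are plotted for the 22 tRNA genes in chromosome order, with 1 point per library coloured by group and (L) marking light-strand genes. MT-TF and MT-TL1 lie above all others, the RNF2 shRNA1 pair stands apart at MT-TV, and a run of genes from MT-TG to MT-TL2 lies between 0 and 7.

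The hairpin groups were also compared with each other. Of 32 genes, 10 were higher in the libraries labelled RNF2 shRNA2 than in RNF2 shRNA1 and 7 lower, where 30% and 29.2% of all genes were called. With near-identical pairs summed 7 were higher and 6 lower, where 4180 and 4659 of all 20352 genes tested in that fit were. MT-CYB was 2.09-fold higher (log2 difference 1.06, SE 0.028, edgeR adjusted p = 6.7e-20), MT-ND5 0.44 higher, MT-ATP6 0.39, MT-CO3 0.37 and MT-ND1 0.34 on the log2 scale. MT-TT was 2.16-fold higher. Lower were MT-RNR2 (log2 difference -1.24, SE 0.046), MT-RNR1 (-0.63), MT-TV (-2.86, SE 0.184, 7.26-fold), MT-TM (-2.74), MT-TF (-1.46) and MT-TL1 (-0.29). The rRNAs, the tRNA between them and those on either side were thus all lower while 8 heavy-strand mRNAs were higher and MT-CO1 alone was lower, by 0.08. With pairs summed 5 heavy-strand mRNAs were called higher and 0 lower, so the MT-CO1 call was lost there. The nuclear RNAs without a poly(A) tail had a median log2 difference of -1.16 in this comparison. Of the 6 tested, 2 were called lower by edgeR, SCARNA10 (log2 difference -1.63, adjusted p = 0.028) and RMRP (-1.77, adjusted p = 0.046), and 0 by DESeq2. Neither was called without RNF2 shRNA1 replicate 2 or RNF2 shRNA2 replicate 2, and 1 of 6 was called without RNF2 shRNA1 replicate 1 or either GW-516 library, with near-identical pairs summed or with the replicate block. Their part in the rRNA differences was not tested.

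Of those calls, MT-CO1 was lost without RNF2 shRNA1 replicate 1, MT-ND3 (0.54) without either RNF2 shRNA1 library, and MT-ND2 and MT-ND4 (each 0.13) without any of the 4 libraries compared. MT-TS1 (1.32) was lost without RNF2 shRNA2 replicate 2, and MT-TD, which was not called, was called higher without RNF2 shRNA2 replicate 1 and turned from 0.33 to -0.60 without replicate 2 (edgeR adjusted p = 0.0091, from 2.2e-05 to 0.82 over the alternatives). MT-CO2, MT-ND4L and MT-ATP8 were not called but passed without RNF2 shRNA2 replicate 2, and MT-ND4L also without either PRT4165 library.

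Between the compounds, whose doses are not given in the sources used here, GW-516 was lower than PRT4165 at 13 of 32 genes, where 23% of all genes were lower. None was higher by edgeR or DESeq2, nor at an unadjusted p under 0.05, where 18.1% of all genes were called higher. The heavy-strand mRNAs accounted for 10 of the 13, with log2 differences from -0.33 in MT-ND4L to -0.20 in MT-CYB. With near-identical pairs summed 12 genes were lower, 9 of them heavy-strand mRNAs, where 2621 of all 20352 genes tested in that fit were lower. MT-RNR2 was lower by 0.25 (SE 0.045, edgeR adjusted p = 0.0030) and MT-TF by 0.24. MT-ND6 had the largest called difference, -0.75 (SE 0.188, adjusted p = 0.026), which was lost without any of the 4 libraries compared and ran from 6.1e-04 to 0.13 in adjusted p over the alternatives. MT-CO2 was lost without PRT4165 replicate 1, MT-ATP6 without either GW-516 library or RNF2 shRNA1 replicate 1, and MT-ND5 without PRT4165 replicate 1 or either GW-516 library.

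Copies of mitochondrial genes also lie in the nuclear genome and can share reads with them. In a list of 20 such copies, MTATP6P1 had 10.3% to 11.6% as many counts as MT-ATP6 over the 10 libraries and MTND2P28 3.83% to 4.35% as many as MT-ND2. The 13 MTRNR2L copies together had 0.0252% to 0.0424% of the counts of MT-RNR2. The sources used here do not give how reads that match both places were assigned, so the levels of MT-ATP6 and MT-ND2 and of their copies are uncertain by such shares. MTATP6P1 fell by 0.29 in RNF2 shRNA1, rose by 0.16 in the libraries labelled RNF2 shRNA2 and fell by 0.21 and 0.40 in PRT4165 and GW-516 on the log2 scale, in the same directions as the values of MT-ATP6. MTRNR2L12 was 0.67 higher in RNF2 shRNA1 and 0.96 lower in the libraries labelled RNF2 shRNA2. Of the 11 copies tested, 3 were higher and 1 lower in RNF2 shRNA1. With near-identical pairs summed 1 was higher there. Fewer than 3 were also higher with DESeq2, without the filter on low counts, and without either Scramble shRNA library or RNF2 shRNA1 replicate 1. In the libraries labelled RNF2 shRNA2 2 were higher and 1 lower. With pairs summed 0 were higher there. Both counts moved without replicate 2 of that group, the first also without Scramble shRNA replicate 1. In PRT4165 0 were higher and 2 lower, and 1 was lower with pairs summed. Fewer than 2 were also lower without Scramble shRNA replicate 2 or PRT4165 replicate 2. In GW-516 0 were higher and 3 lower. DESeq2 also called 0 higher in either compound group. The 3 of 11 higher in RNF2 shRNA1 and the 3 of 11 lower in GW-516, 27.3% each, are near the 26.2% and 29% of all genes, and the other counts lie below the share of all genes in their comparison.

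The nuclear genes that copy, process and translate this chromosome were counted in lists, against the percentages of all genes. Of all genes, 26.2% were higher and 28.6% lower in RNF2 shRNA1, and 21.1% and 21% in the libraries labelled RNF2 shRNA2. In PRT4165 19.9% were higher and 21.7% lower, and in GW-516 26.5% and 29%. Counts with near-identical pairs summed are to be read against the shares given above for summed pairs. Of 12 genes for mitochondrial transcription and the nucleoid, 7 were lower and 1 higher in RNF2 shRNA1, 7 higher and 1 lower in libraries labelled RNF2 shRNA2, 5 lower in PRT4165 (3 with near-identical pairs summed) and 10 lower in GW-516 (6 with pairs summed). The medians were -0.20, 0.23, -0.13 and -0.22 on the log2 scale. With all libraries 58.3% of the 12 were lower in RNF2 shRNA1, 41.7% in PRT4165 and 83.3% in GW-516. In the libraries labelled RNF2 shRNA2 58.3% were higher. TFAM, which packages the chromosome and opens its promoters, fell by 0.43 in RNF2 shRNA1 (SE 0.038, edgeR adjusted p = 7.3e-10), rose by 0.27 in the libraries labelled RNF2 shRNA2, and fell by 0.37 in PRT4165 and by 0.65 in GW-516. POLRMT, the mitochondrial RNA polymerase, was called only in GW-516, where it fell by 0.23, and had log2 differences of 0.12, -0.03 and -0.13 in the other 3. MTERF3, ATAD3B and TEFM fell by 0.50, 0.49 and 0.46 in RNF2 shRNA1, while ATAD3B rose by 0.57 and LONP1, a protease of the matrix, by 0.43 in the libraries labelled RNF2 shRNA2.

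Among 37 tested genes for mitochondrial RNA processing and decay, 24 were lower and 3 higher in RNF2 shRNA1 (14 lower with near-identical pairs summed). The libraries labelled RNF2 shRNA2 had 17 higher and 3 lower (9 higher with pairs summed, and fewer by over 1.5 times without Scramble shRNA replicate 1). PRT4165 had 24 lower and 2 higher (15 lower with pairs summed), and GW-516 27 lower and 2 higher. With all libraries the lower genes were 64.9% of the 37 in RNF2 shRNA1, 64.9% in PRT4165 and 73.0% in GW-516. Against these stand 28.6%, 21.7% and 29% of all genes. The libraries labelled RNF2 shRNA2 had 45.9% higher, against 21.1% of all genes. LRPPRC, which stabilises mitochondrial mRNAs and supports their polyadenylation, fell by 0.07 in RNF2 shRNA1 and rose by 0.17 in the libraries labelled RNF2 shRNA2. It fell by 0.27 in PRT4165 and by 0.55 in GW-516 (SE 0.027, edgeR adjusted p = 1.4e-14). MTPAP, the mitochondrial poly(A) polymerase, fell by 0.12, 0.24 and 0.37 in RNF2 shRNA1, PRT4165 and GW-516 and had an uncalled difference of 0.06 in the libraries labelled RNF2 shRNA2. ELAC2, which cuts the 3' ends of tRNAs out of the transcript, fell by 0.37 in RNF2 shRNA1. HSD17B10 and TRMT10C belong to the RNase P that cuts the 5' ends. HSD17B10 rose by 0.97 in the libraries labelled RNF2 shRNA2, and TRMT10C fell by 0.58 in PRT4165 and by 0.62 in GW-516.

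Of 78 tested proteins of the mitochondrial ribosome, the partners of the rRNAs, 45 were lower and 8 higher in RNF2 shRNA1 (26 lower with near-identical pairs summed), where MT-RNR2 was higher. MRPL1 had the smallest adjusted p there, falling by 1.20 on the log2 scale. PRT4165 had 58 lower (36 with pairs summed) and 0 higher, with 0 higher also at an unadjusted p under 0.05 and with DESeq2, and GW-516 had 61 lower and 1 higher. MRPS27 fell by 0.36 and 0.61 in these. Of the 78, 57.7% were lower in RNF2 shRNA1, 74.4% in PRT4165 and 78.2% in GW-516, against 28.6%, 21.7% and 29% of all genes. In the libraries labelled RNF2 shRNA2 21.8% were higher and 16.7% lower, near or below the 21.1% and 21% of all genes. The libraries labelled RNF2 shRNA2 had 17 higher and 13 lower, but 4 and 6 with pairs summed, and these counts moved by over 1.5 times without Scramble shRNA replicate 2 or RNF2 shRNA2 replicate 1, the higher one also without Scramble shRNA replicate 1.

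The nuclear-encoded subunits of the respiratory complexes, 72 in all, were lower in 43 cases and higher in 1 in PRT4165 and lower in 49 and higher in 1 in GW-516 (27 and 33 lower with near-identical pairs summed). UQCRC2, a core subunit of complex III, fell by 0.36 and 0.52 and ATP5F1B, the catalytic subunit of complex V, by 0.28 and 0.40. In RNF2 shRNA1 18 were lower and 14 higher, the former 9 with pairs summed and the latter up to 24 without the libraries labelled RNF2 shRNA2. In the libraries labelled RNF2 shRNA2 13 were lower and 15 higher, which ranged from 4 to 35 and from 5 to 25 over the alternatives, the higher count moving by over 1.5 times without either library of that group, and the lower count without RNF2 shRNA2 replicate 1 or either Scramble shRNA library. With all libraries, 25% of the 72 were lower and 19.4% higher in RNF2 shRNA1, below the 28.6% and 26.2% of all genes. In the libraries labelled RNF2 shRNA2 18.1% were lower and 20.8% higher, near or below the 21% and 21.1% of all genes. PRT4165 had 59.7% lower and GW-516 68.1%, against 21.7% and 29% of all genes. In GW-516 subunits from both genomes were thus lower in most cases.

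Genes for mitochondrial DNA replication were lower in 8 and higher in 6 of 16 cases in RNF2 shRNA1, 2 and 7 in the libraries labelled RNF2 shRNA2 (4 higher with near-identical pairs summed), 6 and 1 in PRT4165 and 10 and 1 in GW-516. With all libraries 50% of the 16 were lower and 37.5% higher in RNF2 shRNA1, against 28.6% and 26.2% of all genes. In the libraries labelled RNF2 shRNA2 43.8% were higher, against 21.1%. PRT4165 had 37.5% lower and GW-516 62.5%, against 21.7% and 29%. POLG, the mitochondrial DNA polymerase, rose in all 4 groups, by 0.69, 0.33, 0.37 and 0.43 on the log2 scale. Of 11 regulators of mitochondrial biogenesis, 4 were lower and 2 higher in RNF2 shRNA1, 1 and 6 in libraries labelled RNF2 shRNA2, 5 and 2 in PRT4165 (3 lower with pairs summed, also fewer without either Scramble shRNA library or PRT4165 replicate 2) and 6 and 2 in GW-516. The regulators called higher were 18.2% of the 11 in RNF2 shRNA1, PRT4165 and GW-516, near or below the 26.2%, 19.9% and 26.5% of all genes. In the libraries labelled RNF2 shRNA2 54.5% were higher, against 21.1%. Lower were 36.4% in RNF2 shRNA1, 45.5% in PRT4165 and 54.5% in GW-516, against 28.6%, 21.7% and 29%. PPARGC1B, a coactivator of mitochondrial genes, rose by 0.34 in the libraries labelled RNF2 shRNA2. It fell by 0.33 in PRT4165 and by 0.71 in GW-516. PPRC1, a related coactivator, fell by 0.24 in RNF2 shRNA1, rose by 0.27 in the libraries labelled RNF2 shRNA2, and fell by 0.31 in PRT4165 and by 0.39 in GW-516.

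Several of the smaller counts moved by over 1.5 times when 1 library was left out. In RNF2 shRNA1 the numbers higher among RNA processing, ribosomal and biogenesis genes did so without Scramble shRNA replicate 2 or RNF2 shRNA1 replicate 1, within 1 to 4, 5 to 9 and 1 to 3 over all alternatives. The transcription gene called higher there became 2 without Scramble shRNA replicate 2, RNF2 shRNA1 replicate 2 or any PRT4165 or RNF2 shRNA2 library, and the 1 called lower in the libraries labelled RNF2 shRNA2 was lost without either Scramble shRNA or RNF2 shRNA1 library or RNF2 shRNA2 replicate 1. In PRT4165 up to 2 ribosomal proteins were called higher without either library labelled RNF2 shRNA2 or without PRT4165 replicate 1, the 1 respiratory subunit called higher was lost without Scramble shRNA replicate 1, and the 2 higher biogenesis genes became fewer without Scramble shRNA replicate 2, PRT4165 replicate 2 or either RNF2 shRNA1 library. In GW-516 the 2 higher RNA processing genes moved without GW-516 replicate 2, the 1 higher ribosomal protein without GW-516 replicate 2 or either PRT4165 library, and the 1 higher respiratory subunit became 2 without either library labelled RNF2 shRNA2.

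**Figure D5:**
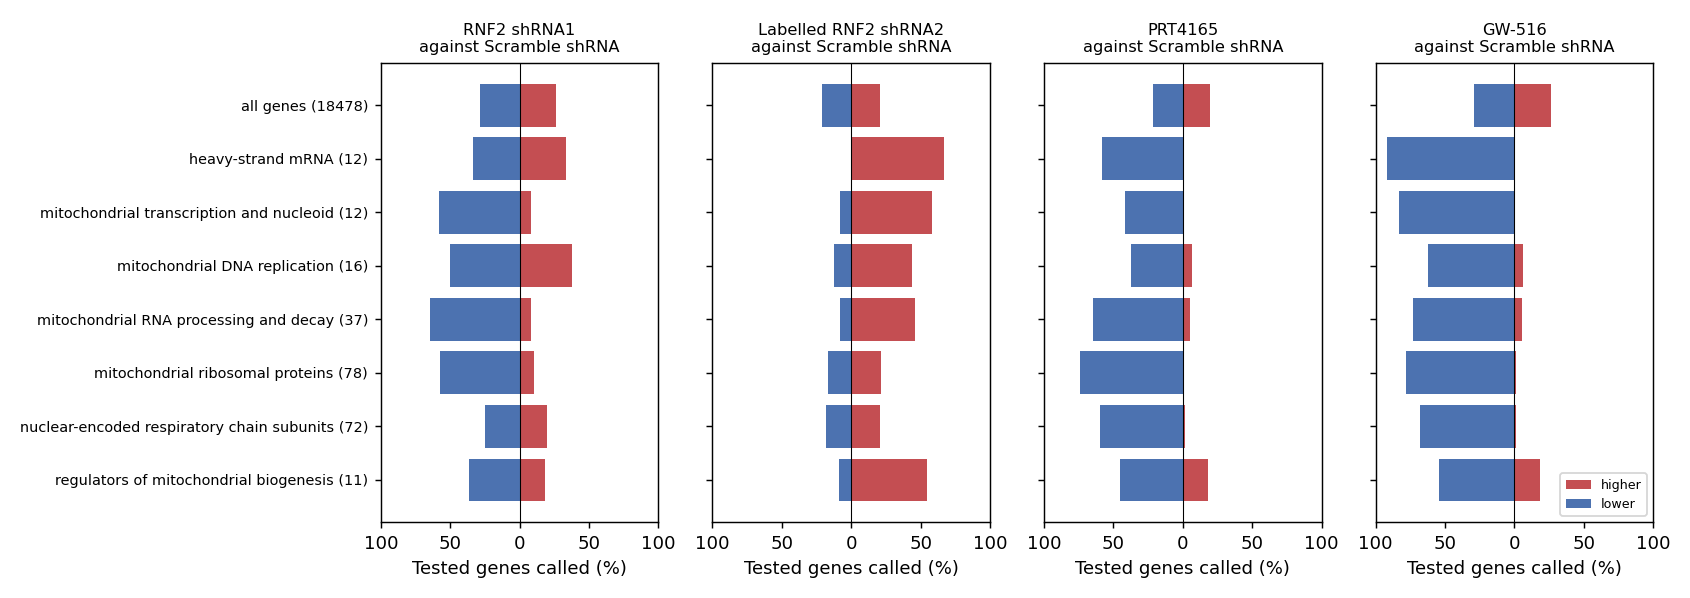
Bars give the percentage of tested genes called higher (right, red) and lower (left, blue) against Scramble shRNA for all genes, the heavy-strand mRNAs and 6 lists of nuclear genes, with the number tested in parentheses and 1 panel per comparison. In GW-516 11 of 12 heavy-strand mRNAs and 61 of 78 mitochondrial ribosomal proteins were lower, where 29% of all genes were.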

How the data were processed

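RNA of 10 PC3 libraries was prepared with a stranded messenger RNA kit and read from both ends, per the labels' protocols. The authors deposited counts per gene made with featureCounts 1.4.3-p1 on GENCODE 18 with strand option 2, and with no option for read pairs or for reads over more than 1 gene, per the file headers. STAR, DESeq2 1.8.1, hg19 and GRCh37 are named without a role in the submitters' processing notes, and the sources used here do not name the mitochondrial reference sequence. Gene symbols and sequences came from GENCODE 29, which named 51812 of 57445 identifiers and all 37 mitochondrial ones.

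Counts were fitted with edgeR 4.0.16 in R 4.3.3 (limma 3.58.1 installed): TMM scaling, filterByExpr with a minimum count of 10, a robust quasi-likelihood fit of all 10 libraries in which each group has its own coefficient, leaving 5 residual degrees of freedom, 6 comparisons, and Benjamini-Hochberg adjustment over 18478 genes at 0.05. TMM factors ran from 0.972 to 1.05 and totals from 65877850 to 108380198, and a count of 0 allows 0.0560 to 0.0935 CPM (3 fragments or 6 counts, since both mates were mostly counted, for counting error only). Levels are counts per 1000000 counts of TMM-scaled library size (CPM). The fit was tested on simulated data. Alternatives, 17 in all, were RLE size factors, DESeq2 1.42.0, no filter on low counts, a replicate block, near-identical pairs summed (Scramble shRNA, RNF2 shRNA1 and GW-516, 7 samples left, 2 residual degrees of freedom), library sizes without the mitochondrial genes, leaving out both libraries labelled RNF2 shRNA2, and leaving out each library.

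The mitochondrial genes and all lists were chosen with earlier results of these data known. All mitochondrial genes are named; of each other list, up to 4 members with the smallest adjusted p per comparison, with POLRMT, TFAM, LRPPRC and MTPAP throughout. MRM1, MRPL45, MRPS21 and 7 of the 19 RNAs without a tail were not matched by symbol. RNF2 and BMI1 checked the labels. One marker list is not reported here.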

Additional observations from a re-analysis of the deposited data

How the results depend on the processing

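Of 82 calls among 192 tests of mitochondrial genes, 61 held in all 17 alternatives. Over all alternatives and tests 67 values newly passed the threshold, 63 no longer did and 3069 kept direction and side. MT-TD between the hairpin groups reversed, from 0.33 to -0.60, without RNF2 shRNA2 replicate 2, whose counts were 615 against 152 in its partner, and rose to 0.81 without replicate 1. With near-identical pairs summed, which leaves fewer samples, 13 of the 192 tests lost their call, the most of any alternative, and 1 gained one. The genes lower in RNF2 shRNA1 went from 4 to 2 and those higher in PRT4165 from 1 to 2, the latter also with DESeq2. Those lower in PRT4165 went from 10 to 8. Between the hairpin groups 10 higher and 7 lower became 7 and 6. Leaving out 1 library at a time gave 8 to 12 genes higher and 2 to 7 lower in RNF2 shRNA1, 9 to 11 and 2 to 4 in libraries labelled RNF2 shRNA2, 1 to 2 and 8 to 12 in PRT4165, and 1 (in each case) and 13 to 17 in GW-516. It gave 7 to 11 and 6 to 8 between the hairpin groups, and 0 (in each case) and 10 to 16 in GW-516 against PRT4165. Where this left 1 library in a group, its spread was assumed to be that of the others. The replicate numbers do not pair the samples, since deviations of same-numbered libraries correlated between -0.0654 and 0.0157. A replicate block gave 10 higher and 4 lower in RNF2 shRNA1, 11 and 3 in libraries labelled RNF2 shRNA2, 1 and 10 in PRT4165, 1 and 14 in GW-516, 11 and 7 between the hairpin groups and 0 and 12 between the compounds, and MT-ND6 between the compounds was not called. Low counts limit the tRNA genes, 5 of which could not be tested. The causes of these changes were not tested.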
